A study of Mus musculus with 6 samples.

Results

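The BCL2 family genes examined here were 10 genes chosen by name, namely Bcl2, Bcl2l1, Mcl1, Bax, Bak1, Bcl2l11, Bad, Bid, Bbc3 and Pmaip1. All 10 were among the 13931 genes measured in lenses of newborn (P0) mice, and all 10 had an average expression above 1 log2 CPM (read counts scaled to library size, CPM, on a log2 scale). They were examined to see whether genes of the apoptosis pathway changed along with the cell stress genes and with Cdkn1a, the cell cycle inhibitor p21. RNA from whole lenses was sequenced in 3 Celf1cKO and 3 control libraries, each from pooled lenses of mixed C57BL/6 and FVB background. Celf1 encodes an RNA-binding protein that controls splicing, stability and translation of its targets. The Celf1cKO mice carried 1 germline knockout allele (Celf1lacZKI), 1 Celf1flox allele with loxP sites around an exon, and the Pax6GFPCre transgene, which drives Cre in the lens from the placode stage and also in the pancreatic lineage. The labels give the controls as Celf1lacZKI/+, which carry the same germline allele, whereas in the study's methods the usual controls are Cre-negative Celf1flox mice, so the genotype of the controls was not settled. Under the genotype in the labels the control lenses also have only 1 intact Celf1 allele and carry no Cre, so the floxed allele, Cre and the loss of Celf1 cannot be told apart.

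The BCL2 family decides whether the outer membrane of the mitochondrion stays sealed during the intrinsic pathway of apoptosis. BAX and BAK form the pores that release cytochrome c, the anti-apoptotic proteins BCL2, BCL-xL (from Bcl2l1) and MCL1 hold them in check, and the BH3-only proteins BIM (from Bcl2l11), BAD, BID, PUMA (from Bbc3) and NOXA (from Pmaip1) sense damage and tip the balance. Bax, Bbc3 and Pmaip1 are textbook targets of the transcription factor p53, as Cdkn1a is. In the lens, fiber cells lose their nuclei and organelles as they mature without dying, and several parts of the apoptosis machinery are expressed there. Much of the family is controlled at the protein level, by phosphorylation, cleavage, binding and turnover, which RNA levels do not show.

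Celf1 was lower in the Celf1cKO libraries, at 8.93, 7.66 and 7.83 log2 CPM, than in the control libraries, at 9.95, 9.94 and 9.34 log2 CPM (log2 fold-change -1.60, adjusted p = 0.0269 from limma). Celf1cKO library 1 kept the most Celf1 of its group, and the call held without it and was lost without any other library (adjusted p from 0.056 to 0.108). Per library, genes received between 40.7 M and 44.4 M reads, and a detection floor of 3 reads lay at 0.0609 to 0.0807 CPM. Crystallin genes took between 45.8% and 46.9% of the reads in control and between 34.7% and 38.5% in Celf1cKO libraries. All 6 markers of lens epithelium were lower in Celf1cKO lenses and 2 of them were called, and their summed level ranged from 590 to 620 CPM in control and from 180 to 492 CPM in Celf1cKO libraries. Of 9 markers of fiber cells 8 were in the table, all but Lim2, and 3 were called lower. Log2 fold-changes were negative for 7 of the 8, and Bfsp2 had a positive one (0.20). The summed level of the 8 lay between 254977 and 289338 CPM in control and between 206083 and 217711 CPM in Celf1cKO libraries. Most of it came from Cryaa and Cryba1, neither of them called (adjusted p = 0.536 and 0.475 from limma). All 6 endothelial markers also had negative log2 fold-changes, with none called, and their sum ranged from 83.2 to 101 CPM in control and from 21.2 to 97.8 CPM in Celf1cKO libraries. The part of these shifts in the values of the BCL2 family genes was not tested, and in whole lenses a change in the proportions of cell types cannot be told apart from a change in RNA per cell.

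Of the 10 BCL2 family genes 2 were called between the groups, Bax and Bcl2l1, and both were higher in Celf1cKO lenses. Calls required an adjusted p from limma under 0.05, a log2 fold-change beyond 0.58 in either direction, which is a 1.49-fold change, and an average expression above 1 log2 CPM. By this rule 7.39% of all 13931 genes were called, 4.77% higher and 2.63% lower, against 20% of the family genes. Only the 10640 genes above 1 log2 CPM, among them all 10 family genes, could be called. The share among those 10640 is therefore higher than 7.39%. With so few family genes, nothing particular to the family is read from the 20%. On adjusted p alone the same 2 family genes passed, against 11.9% of all genes. An unadjusted p under 0.05 from limma was found for 5 of the 10, against 4171 of all 13931 genes. The log2 fold-changes ranged from -0.47 to 0.67 with a median of 0.28, and 8 were positive, whereas the median over all genes was -0.04 and that over the 10640 genes above 1 log2 CPM was 0.00. The groups did not overlap for 5 of the 10, 4 of them higher and 1 lower in Celf1cKO lenses, against 36.5% of all genes.

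**Figure D1:**
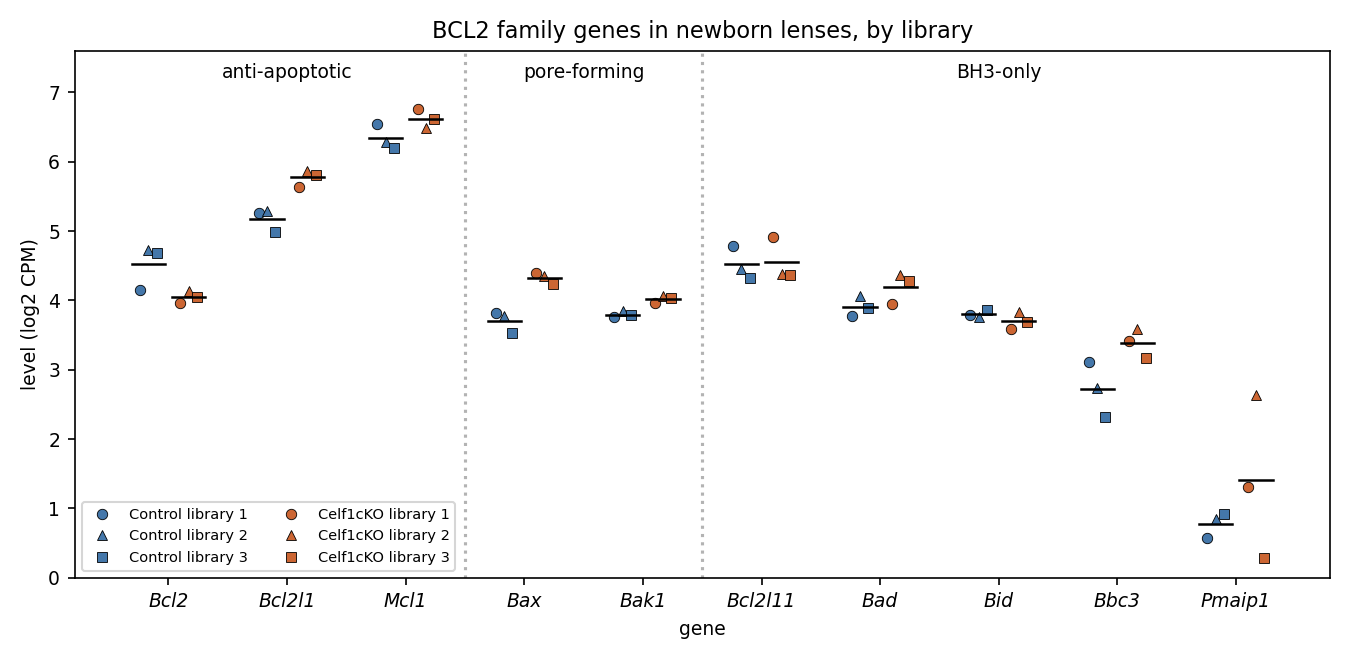
Level of each BCL2 family gene in log2 CPM (y axis) in the 3 control (blue) and 3 Celf1cKO (orange) libraries, with the marker shape giving the library number and the black bar the mean of 3 libraries. The groups are separate for Bcl2, Bcl2l1, Bax, Bak1 and Bbc3, Mcl1 has the highest levels, and the Pmaip1 values of the Celf1cKO libraries spread from 0.29 to 2.64 log2 CPM.

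Bax, which forms the pores of the outer mitochondrial membrane, stood at 3.82, 3.77 and 3.53 log2 CPM in the controls, in the order of their library numbers, and at 4.39, 4.35 and 4.23 log2 CPM in the Celf1cKO libraries. Every Celf1cKO library was above every control library, with a gap of 0.41 on the log2 scale between the nearest of them. The level rose 1.53-fold (log2 fold-change 0.62, standard error 0.13, adjusted p = 0.0249 from limma). Bax occupies positions 45461697 to 45466898 of chromosome 7 (GRCm38, minus strand), and 12.18% of its exonic length also belongs to Gm45808, annotated on the same strand. Reads from that stretch could come from either gene, and how they were counted is not given in the sources used here. The call held without Celf1cKO library 1 (adjusted p = 0.0301) and was lost when any of the other 5 libraries was left out (adjusted p from 0.0514 to 0.097), while the log2 fold-change stayed between 0.53 and 0.67. The promoter of Bax is shown because Bax is a called gene and a p53 target, and it was the only one of the family's promoter windows to match a p53 half-site. It runs from 250 bases before to 50 bases after the annotated start (RefSeq, GRCm38.p6, chr7:45466849-45467148, minus strand), and capitals mark, in order, a p53 half-site beginning 201 bases before the start and a pair of E-boxes, CACGTG, beginning 9 bases before and 35 bases after it.
Bax promoter: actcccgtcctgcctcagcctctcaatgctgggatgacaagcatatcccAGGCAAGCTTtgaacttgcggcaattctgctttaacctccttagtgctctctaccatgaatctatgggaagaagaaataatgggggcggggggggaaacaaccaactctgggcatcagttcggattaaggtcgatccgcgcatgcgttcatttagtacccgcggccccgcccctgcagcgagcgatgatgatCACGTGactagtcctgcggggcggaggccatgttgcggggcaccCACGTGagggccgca

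Bak1, which encodes the other pore-forming protein, was measured at 3.76, 3.85 and 3.78 log2 CPM in control and at 3.97, 4.07 and 4.03 log2 CPM in Celf1cKO libraries. The groups did not overlap, but the difference was small and did not pass (log2 fold-change 0.22, standard error 0.11, adjusted p = 0.204 from limma). Its 95% interval ran from -0.02 to 0.47 on the log2 scale and so left out the 0.62 measured for Bax, although the difference between the log2 fold-changes of these genes was not tested. An opposite-strand gene, Ggnbp1, shares 25.51% of the exonic length of Bak1, and the strand setting used for counting is not given in the sources used here.

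Bcl2l1, whose main product BCL-xL guards against BAX and BAK, stood at 5.26, 5.29 and 4.98 log2 CPM in control libraries and at 5.64, 5.86 and 5.81 log2 CPM in Celf1cKO libraries. It received 1243 to 1466 reads in each control library and 2143 to 2827 reads in each Celf1cKO library. The groups did not overlap, and the level rose 1.51-fold (log2 fold-change 0.59, standard error 0.12, adjusted p = 0.0224 from limma). This lies just past the fold-change threshold, and under median centring (0.57), quantile normalization (0.52) or rescaling without the crystallin genes (0.57) the log2 fold-change fell short of it while the adjusted p remained under 0.05. The call also held without Celf1cKO library 1 (adjusted p = 0.0131) and was lost without any of the other 5 (0.0544 to 0.108). The counts are per gene, and the long BCL-xL and the short, pro-apoptotic isoform of Bcl2l1 cannot be told apart in them. The gene lies on chromosome 2 from 152780668 to 152831728, minus strand, and of its 3 annotated promoter windows the most upstream is shown (RefSeq, GRCm38.p6, chr2:152831679-152831978, minus strand) as the counterpart of the Bax window. None of the motifs searched was in it or in the others, so it has no capitals.
Bcl2l1 promoter: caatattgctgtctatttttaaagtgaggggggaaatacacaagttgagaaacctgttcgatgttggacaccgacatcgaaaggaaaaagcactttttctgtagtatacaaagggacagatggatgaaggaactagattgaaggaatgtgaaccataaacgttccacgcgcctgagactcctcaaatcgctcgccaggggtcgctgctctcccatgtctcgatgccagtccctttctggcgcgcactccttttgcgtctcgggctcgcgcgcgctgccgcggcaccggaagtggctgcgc

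Bcl2, the founding anti-apoptotic gene, had levels of 4.15, 4.73 and 4.68 log2 CPM in control and 3.97, 4.13 and 4.05 log2 CPM in Celf1cKO libraries. It was the only 1 of the 10 for which every Celf1cKO library lay below every control library, although control library 1 came within 0.02 of the highest Celf1cKO library. The difference did not pass (log2 fold-change -0.47, standard error 0.17, adjusted p = 0.115 from limma). Without control library 1 the log2 fold-change was -0.66 and the adjusted p from limma 0.0426, which would be a call. Without any other library the adjusted p lay between 0.158 and 0.277. Mcl1, the short-lived anti-apoptotic gene, was the most abundant of the family at 6.54, 6.29 and 6.20 log2 CPM in control and 6.76, 6.49 and 6.62 log2 CPM in Celf1cKO libraries. Its groups overlapped and the difference did not pass (log2 fold-change 0.28, standard error 0.12, adjusted p = 0.161 from limma). None of 4 genes for enzymes of MCL1 protein turnover, Huwe1, Fbxw7, Usp9x and Trim17, was called, with log2 fold-changes between 0.00 and 0.31.

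None of the 5 BH3-only genes was called. Bbc3, which encodes PUMA and had the largest log2 fold-change of the 10, was measured at 3.11, 2.74 and 2.31 log2 CPM in control and at 3.41, 3.59 and 3.18 log2 CPM in Celf1cKO libraries. The groups were separated by 0.07 on the log2 scale (log2 fold-change 0.67, standard error 0.23, adjusted p = 0.0983 from limma). Once the replicate number entered the model as a block, its adjusted p from limma was 0.0493 and it was called, which made 3 of the 10 called against 9.18% of all genes under that model. Control library 1 had the highest Bbc3 level of its group, and the log2 fold-change was 0.86 without it and 0.47 without control library 3. The 3 genes whose levels, each centred on its own mean, followed Bbc3 most closely over the 6 libraries were Scd1, a fatty acid desaturase, Acta2, smooth muscle actin, and the histone gene H4c9, with root mean square differences of 0.0478, 0.0837 and 0.0986 on the log2 scale, and none of them was called. Of the 3 promoter windows of Bbc3 (chromosome 7, from 16308393 to 16318205, plus strand), the one with a match to the FOXO core GTAAACA is shown, because PUMA and BIM are known targets of FOXO factors (RefSeq, GRCm38.p6, chr7:16310011-16310310, plus strand). Capitals mark the match, on the reverse strand, 167 bases before the start.
Bbc3 promoter: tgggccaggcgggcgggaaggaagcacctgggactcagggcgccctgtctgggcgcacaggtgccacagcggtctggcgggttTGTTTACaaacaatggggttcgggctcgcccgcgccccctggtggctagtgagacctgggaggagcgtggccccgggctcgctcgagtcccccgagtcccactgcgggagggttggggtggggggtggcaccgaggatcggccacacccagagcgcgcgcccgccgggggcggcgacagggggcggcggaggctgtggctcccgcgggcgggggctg

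Pmaip1, which encodes NOXA, was the least expressed of the family and the most variable. Its levels were 0.57, 0.84 and 0.93 log2 CPM in control libraries, from 55, 65 and 73 reads, and 1.30, 2.64 and 0.29 log2 CPM in Celf1cKO libraries, from 104, 301 and 58 reads. Celf1cKO library 2 was above and library 3 below all control libraries, and the difference did not pass (log2 fold-change 0.63, standard error 0.54, adjusted p = 0.469 from limma). It rested on library 2, and the log2 fold-change was 0.02 without that library and 1.19 without Celf1cKO library 3.

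The groups overlapped for each of the remaining BH3-only genes. Bcl2l11, which encodes BIM, was measured at 4.79, 4.46 and 4.32 log2 CPM in control and 4.92, 4.38 and 4.36 log2 CPM in Celf1cKO libraries, with library 1 the highest in both groups (log2 fold-change 0.03, standard error 0.19, 95% interval -0.41 to 0.48). Bad had control levels between 3.78 and 4.06 and Celf1cKO levels between 3.95 and 4.36 log2 CPM (log2 fold-change 0.29, standard error 0.15, adjusted p = 0.241 from limma). Bid, the gene for the link to the death receptor pathway, had control levels between 3.76 and 3.86 and Celf1cKO levels between 3.59 and 3.83 log2 CPM (log2 fold-change -0.10, standard error 0.12, adjusted p = 0.605 from limma). Opposite-strand genes overlap Bad (Gpr137, 20.48% of its exonic length) and Bid (Bcl2l13, 17.69%). Bcl2l11 was the only 1 of the 10 whose 3′ UTR held a GU repeat, the kind of sequence that CELF1 protein is known to bind, and 1 of its matches is shown for that reason. It begins 1752 bases after the stop codon (GENCODE M21, GRCm38, chr2:128160073-128160099, plus strand), and capitals mark the repeat.
Bcl2l11 3′ UTR site: ctttcctcTGTGTGTGTGTgcatgtgt

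**Figure D2:**
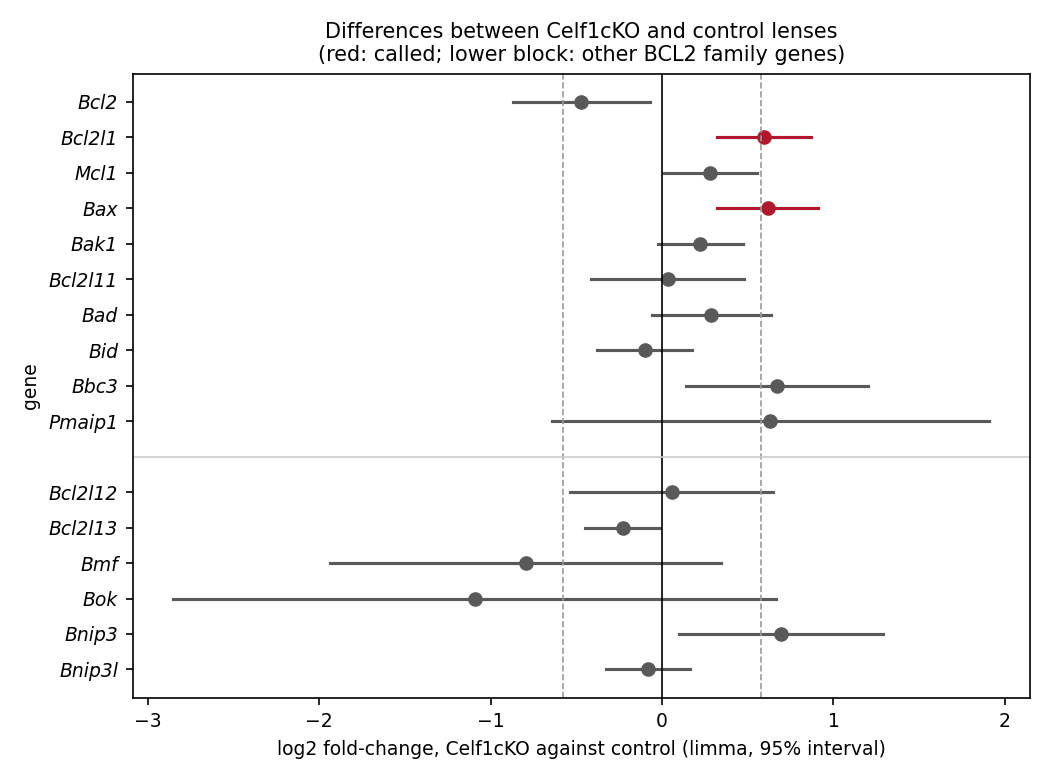
Log2 fold-change of Celf1cKO against control lenses (x axis) with its 95% interval from limma for the 10 BCL2 family genes and, in the lower block, the 6 other family genes with an average above 1 log2 CPM. Dashed lines mark the fold-change threshold of 0.58 in either direction, red marks called genes, which are Bcl2l1 and Bax, and the widest intervals belong to Bok and Pmaip1.

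The motifs were searched on both strands of promoter windows of 300 bases, of which RefSeq gave 15 for 9 of the 10 genes, with none for Pmaip1. The E-box CACGTG was found in windows of Bax and Bbc3 and in 7.15% of all 32851 windows, the FOXO core GTAAACA in windows of Bbc3 and Bcl2l11 and in 3.65%, and the p53 half-site in the Bax window and in 8.36%. The AP-1 motif TGANTCA (7.81% of all windows) and the ATF4 and CHOP element TTGCATCA (0.895%) were in none of the 15. In the longest annotated 3′ UTR of each of 13111 genes, the GU-rich element TGTTTGTTTGT was found in 4.27% of genes and in none of the 10, and the GU repeat TGTGTGTGTGT in 8.62% and only in Bcl2l11, with 24 overlapping matches in 4218 bases. These matches describe the letters and were not measured as binding sites.

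Per kilobase of exon, Mcl1 was the most abundant family gene in control lenses, at 23.8 ± 3.0 CPM per kb (SD, n = 3), followed by Bax at 8.30 ± 0.88 and Bcl2l1 at 7.92 ± 0.91 CPM per kb. The length counted every annotated exon of a gene, used in the lens or not, so the order between genes is approximate. Bax and Bcl2l1 did not differ beyond their spread, nor did Bad (5.89 ± 0.59 CPM per kb) and Bak1 (5.76 ± 0.19 CPM per kb). Bid, Bbc3, Bcl2l11 and Bcl2 followed, with means from 3.93 down to 2.54 CPM per kb and the ranges of neighbours in this order overlapped. Pmaip1 was last at 0.615 ± 0.080 CPM per kb. In Celf1cKO lenses the order began with Mcl1 at 28.9 ± 2.66, Bax at 12.7 ± 0.73 and Bcl2l1 at 11.9 ± 0.94 CPM per kb, and Bcl2 stood at 1.81 ± 0.10 CPM per kb, below Bbc3 at 4.96 ± 0.70 CPM per kb.

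The balance between members was compared as the difference of their log2 CPM values within each library, a description for pairs chosen after their values were seen, with no test. Bax minus Bcl2 was -0.32, -0.96 and -1.15 in control libraries and 0.42, 0.22 and 0.18 in Celf1cKO libraries, so that the means differed by 1.09 on the log2 scale and the groups did not overlap. Bax minus Bcl2l1 was -1.44, -1.52 and -1.45 in control libraries and -1.25, -1.51 and -1.58 in Celf1cKO libraries, where the groups overlapped and the means differed by 0.02. Bcl2l1 minus Bcl2, a comparison within the anti-apoptotic genes, was 1.11, 0.56 and 0.30 in control and 1.67, 1.73 and 1.76 in Celf1cKO libraries, a difference of 1.06. Bax minus Mcl1 and Bbc3 minus Bcl2 differed by 0.34 and 1.14 and did not overlap between the groups. A factor that scales a whole library cancels out of such differences. The values are not per length, so their sign is set in part by exon length, and per kilobase Bax was above Bcl2 in every library of both groups.

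**Figure D3:**
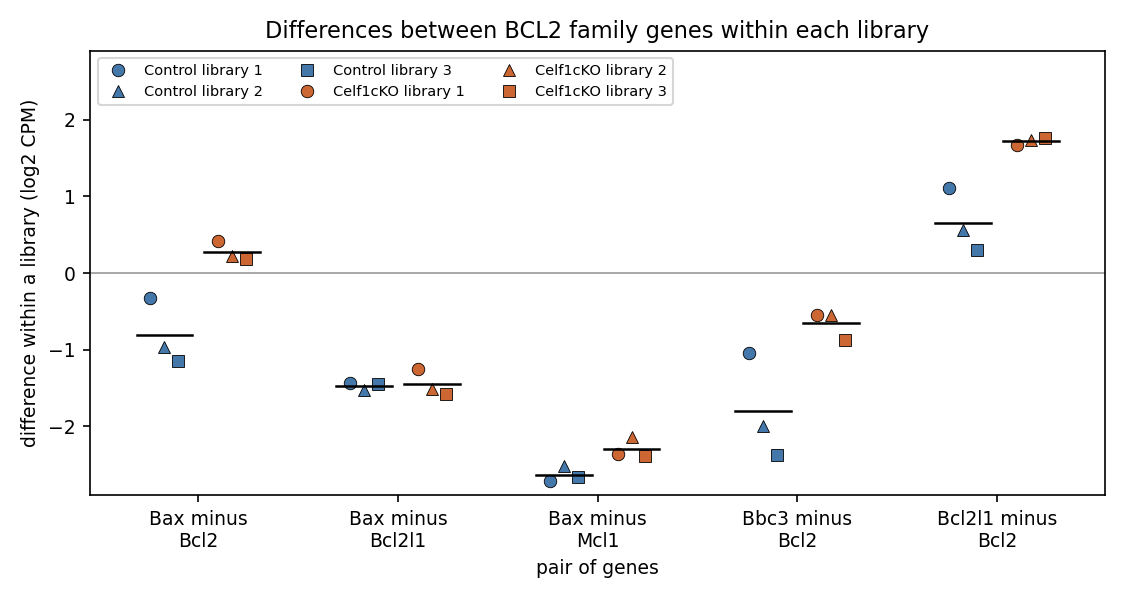
Difference between the log2 CPM values of a pair of BCL2 family genes within each library (y axis) for 5 pairs, with control libraries in blue, Celf1cKO libraries in orange and bars at the mean of 3 libraries. Bax minus Bcl2 lay between -1.15 and -0.32 in control and between 0.18 and 0.42 in Celf1cKO libraries, where the 0 line has no meaning of its own since the values are not per length, and Bax minus Bcl2l1 lay between -1.58 and -1.25 in all 6 libraries.

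The p53 axis was set beside the family because Cdkn1a, its best-known target, was among the most changed genes. Cdkn1a was measured at -0.36, -0.65 and -0.72 log2 CPM in control and at 3.80, 6.04 and 4.70 log2 CPM in Celf1cKO libraries, a 42.9-fold rise (log2 fold-change 5.42, standard error 0.51, adjusted p = 0.00888 from limma). Of 23 genes of the p53 axis 7 were called (30.4%), with Trp53inp1 (log2 fold-change 2.59), Phlda3 (1.82), Zmat3 (1.29), Ccng1 (1.22) and the p53 inhibitor gene Mdm2 (0.58) higher along with Cdkn1a, and Sesn1 lower (-1.10). Mdm2 lay just past the fold-change threshold and fell short of it with log2(CPM + 1) (0.57), median centring (0.56), quantile normalization (0.50) or rescaling without the crystallin genes (0.56), which left 6 genes called. This list was drawn up with the rise of Cdkn1a known and is not independent evidence of its direction. Its count of calls was 0 without control library 2 or Celf1cKO library 3, and 4 without control library 3. Trp53 itself, which encodes p53, was not called (log2 fold-change -0.18, adjusted p = 0.480 from limma). Among the 3 p53 targets of the family, Bax rose 1.53-fold and Pmaip1 did not pass. Bbc3 did not pass as reported but was called in 3 of 12 other settings. These included the replicate block and the looser adjusted p threshold of 0.1.

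Of 24 stress genes in the table, of 26 listed, 5 were called (20.8%). Ddit3, which encodes CHOP, rose from 2.33, 2.37 and 2.29 log2 CPM in control to 4.02, 4.49 and 4.35 log2 CPM in Celf1cKO libraries (log2 fold-change 1.95, adjusted p = 0.00855 from limma). The chaperone genes Hspb8 (log2 fold-change 3.80) and Dnajb9 (1.11) and the transcription factor gene Atf5 (0.85) rose as well, and Ppp1r15a, whose product ends the block on translation, was lower (log2 fold-change -0.74, limma adjusted p = 0.0476). The call of Ppp1r15a was lost with the replicate block (limma adjusted p = 0.0539), without the variance trend (0.0954), under rescaling without the crystallin genes (0.0506) or total-count scaling (0.0846), and without any library other than Celf1cKO library 1 (0.0825 to 0.165). The count of calls was 0 without control library 2 or Celf1cKO library 3, and 3 without control library 1, control library 3 or Celf1cKO library 2. The BH3-only genes that CHOP and FOXO factors are known to act on, Bcl2l11 and Bbc3, were not called. Of 8 upstream regulators of BH3-only genes, the FOXO and JNK genes, Jun and E2f1, only Mapk10, which encodes a JNK kinase, was called (log2 fold-change 0.71, adjusted p = 0.0486 from limma), and Foxo3 was not (0.32, adjusted p = 0.135 from limma). The call of Mapk10 held without Celf1cKO library 1 and was lost without any other library (0.0896 to 0.16).

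Within the Celf1cKO group, Cdkn1a, Phlda3, Ccng1, Ddit3, Atf5 and Hspb8 were each highest in library 2 and lowest in library 1. Other called genes of those lists had another order, with Trp53inp1, Zmat3 and Mdm2 lowest in library 3 and Dnajb9 highest in library 1, and the lower genes Sesn1 and Ppp1r15a were lowest in library 2. Of the family, Bcl2l1, Bak1 and Bad had the order of Cdkn1a, and so did Bcl2 and Bid, whose log2 fold-changes were negative. Mcl1 and Bcl2l11 were highest in library 1, as was Bax (0.68 above the control mean, against 0.65 and 0.52 in libraries 2 and 3), and Bbc3 and Pmaip1 were highest in library 2 and lowest in library 3. The highest and lowest Celf1cKO libraries differed by 0.16 on the log2 scale for Bcl2 and by 2.24 for Cdkn1a. An order of 3 libraries is a description. Celf1 itself was highest in library 1 and lowest in library 2 of this group. Library 2 also had the lowest summed level of lens epithelium markers and of endothelial markers. The part of Celf1 or of these markers in the order was not tested.

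**Figure D4:**
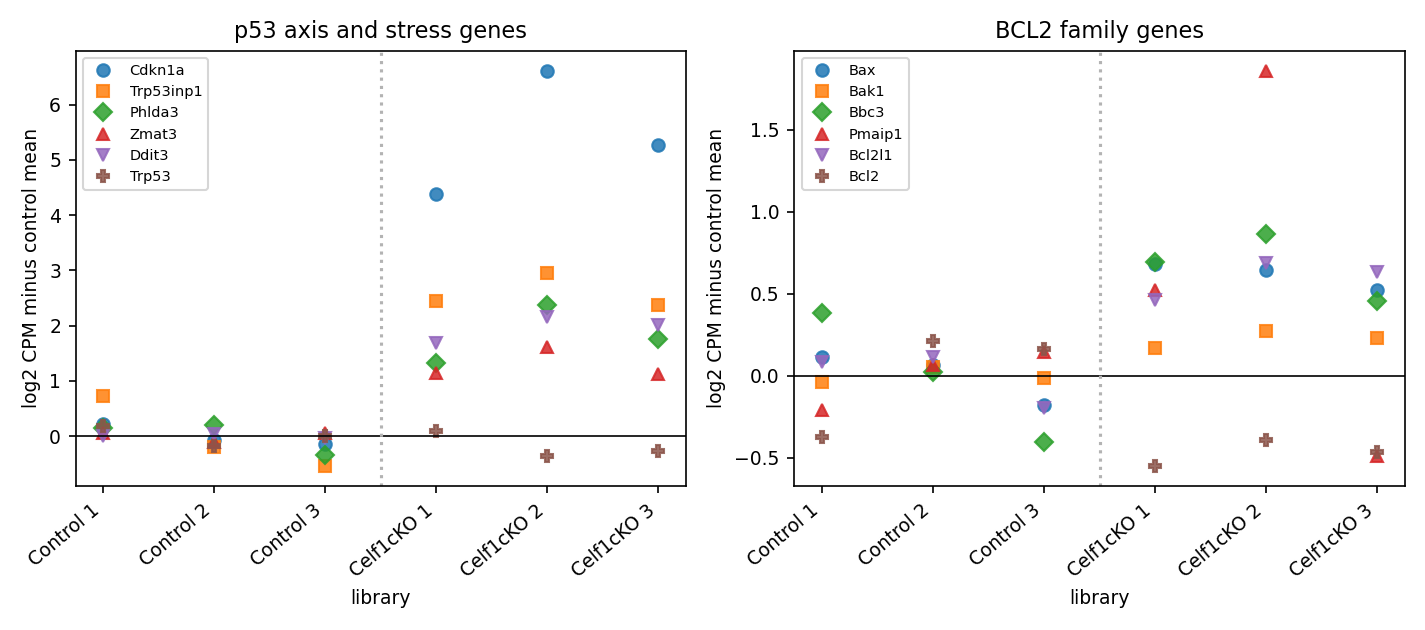
Level of each gene in each library minus the mean of the 3 control libraries (y axis, log2 CPM) for genes of the p53 axis and stress genes (left) and for 6 BCL2 family genes (right). The y axes differ between the panels, since Cdkn1a lies between 4.38 and 6.62 above its control mean in Celf1cKO libraries, and Bax between 0.52 and 0.68 above its own.

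The list of the apoptosis machinery held 26 genes, for cytochrome c and the apoptosome, caspases with their adaptors and inhibitors, Vdac2 and the MCL1 turnover enzymes named above. Of these 2 were called (7.69%), or 9.09% of the 22 genes without the turnover enzymes, and the median log2 fold-change of the 26 was 0.13. The count of calls was 0 without control library 2, control library 3, Celf1cKO library 2 or Celf1cKO library 3, and 4 without Celf1cKO library 1. Cycs, the gene of cytochrome c (log2 fold-change 0.51, adjusted p = 0.0174 from limma), and Vdac2, a channel that binds BAK (0.56, adjusted p = 0.0164), passed on adjusted p but not on the size of the change. Casp9 (0.32, adjusted p = 0.0951 from limma) and Apaf1 (0.03, adjusted p = 0.913), which form the apoptosome with cytochrome c, were not called.

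Of 15 other genes of the BCL2 family 9 were in the table and 6 were above 1 log2 CPM on average. None was called by limma, and none by limma voom on the recovered reads. The unadjusted p from limma was under 0.05 for 2 of the 9, against 4171 of all 13931 genes. Bnip3, which takes part in the removal of mitochondria, stood at 6.63, 6.25 and 6.37 log2 CPM in control and 7.65, 6.56 and 7.13 log2 CPM in Celf1cKO libraries, so that the groups overlapped (log2 fold-change 0.70, adjusted p = 0.117 from limma). It was called with the replicate block (adjusted p = 0.0308) and without Celf1cKO library 2 (0.0371). Its relative Bnip3l, known for organelle removal in lens fiber cells, had a log2 fold-change of -0.08, Bcl2l13 one of -0.23 and Bcl2l12 one of 0.06. The pro-apoptotic genes Bok (-1.09) and Bmf (-0.80) had larger values with overlapping groups, and neither passed (adjusted p = 0.365 and 0.311 from limma).

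Leaving out 1 library changed calls across the whole table. Without control library 2 or Celf1cKO library 3, 1 gene of 13931 was called, so the calls of Bax, Bcl2l1 and Cdkn1a were all lost there (Cdkn1a at adjusted p = 0.0512 and 0.0607 from limma, with log2 fold-changes of 5.39 and 5.50). Without Celf1cKO library 1, which kept the most Celf1, 1916 genes were called. With 3 libraries against 3, an exact permutation test of a single gene cannot give a p under 0.1. The plot of fold-changes under other settings shows how far the value of each member moved.

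**Figure D5:**
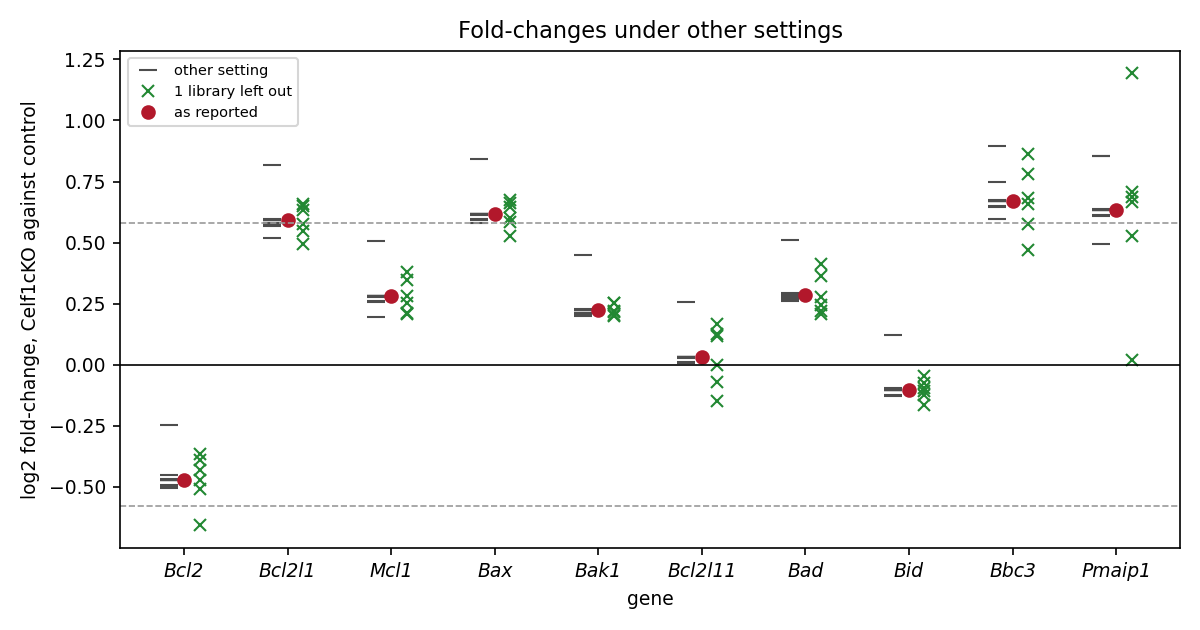
Log2 fold-change of each BCL2 family gene (y axis) as reported (red), under 12 other settings of scaling, variance model and thresholds (grey dashes, left of each) and with each of the 6 libraries left out (green crosses, right of each), with dashed lines at 0.58 in either direction. The highest grey dash is total-count scaling for each gene but Pmaip1, for which quantile normalization gave about the same value, and the crosses of Pmaip1 run from 0.02 to 1.19.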

How the data were processed

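RNA-sequencing libraries of P0 mouse lenses (3 control, 3 Celf1cKO) were grouped by their labels. As the methods and labels state, the authors trimmed the strand-specific paired-end reads, aligned them to GRCm38.p6 with STAR 2.7.8a, kept uniquely mapped reads, counted them with featureCounts 2.0.0 and removed genes of very low CPM. The values are log2 CPM per library, normalized with edgeR and deposited by the authors for 13931 genes with a small prior count. The deposited table also holds the authors' average log2 CPM, which was used for the expression threshold, and their own fold-changes, F statistics, p-values and FDR, which were not used. The authors' normalization scaled control libraries by 0.887 to 0.964 and Celf1cKO libraries by 1.06 to 1.12 relative to their totals. Read numbers were recovered from the spacing of the values, and 100% came out whole within 0.05 of a read. No pair of libraries agreed within sampling noise.

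Groups were compared on the log2 values with limma 3.58.1 in R 4.3.3 (variance trend, two-sided, Benjamini-Hochberg adjustment over all genes), tested first on simulated data. Because the deposited values are on a log2 scale, limma was chosen in place of the count test used in the study. That count test was not run on the recovered reads. Every adjusted p in the text is from limma. Where p-values are given they measure the spread between pools of lenses. The labels share replicate numbers between the groups and describe no pairing. The deviations of same-numbered libraries from their group means correlated at 0.302, 0.417 and 0.348 over genes, which does not settle whether the libraries were paired. The reported fit left the number out, and a fit with the number as a block was run as an alternative. The call of Bbc3 depends on this choice. Other alternatives concerned the variance model, the pseudocount, the scaling, limma voom on the recovered reads, the thresholds, and the removal of each library by itself.

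The members and the gene lists were chosen with earlier results of these data known. Named were all members, the other BCL2 family genes above 1 log2 CPM, Celf1, Cdkn1a, up to 6 called genes per list by size of change, Trp53, Mdm2, Casp9, Apaf1 and Cycs whether called or not, and the 3 genes most like the member with the largest log2 fold-change. The called genes of the apoptosis machinery are not reported here by name. Vdac2, Foxo3, the genes of MCL1 turnover and the balance pairs were chosen for mention with their values already seen. Of the other marker lists, the summed levels in control and Celf1cKO libraries were 3.23 to 8.76 and 4.01 to 6.36 CPM for macrophages (4 of 7 in the table, without Ptprc, Aif1 and Cd14), 0.484 to 14.0 and 2.14 to 10.6 CPM for retina (3 of 6), 3.58 to 21.6 and 6.64 to 26.4 CPM for pigmented cells (4 of 5) and 10.8 to 13.0 and 2.43 to 9.13 CPM for mesenchyme (3 of 5). Of blood and of corneal or skin epithelium only Alas2 and Krt1 were in the table, with none of the hemoglobin genes. None of these genes was called. Positions came from GENCODE M21 and promoters from RefSeq. Figures were drawn with matplotlib 3.10.9.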

Additional observations from a re-analysis of the deposited data

How the results depend on the processing

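Of the 12 other settings, the replicate block, robust empirical Bayes, log2(CPM + 1), total-count scaling, limma voom on the recovered reads, a low filter and other thresholds left Bax and Bcl2l1 called. Bbc3 was called as well in 3 of the 12, among them the replicate block and the looser adjusted p threshold of 0.1. Without the variance trend the calls fell to 0 BCL2 family members, 0 apoptosis machinery genes, 0 upstream regulators and 2 stress genes. Over all genes the share called there was 3.02%, against 7.39% as reported. Under median centring, quantile normalization or rescaling without crystallin genes 1 member (Bax) was called, against 7.12%, 7.39% and 6.86% of all genes. Apoptosis machinery gave 1 call with log2(CPM + 1), median centring or rescaling without crystallin genes, 4 with no fold-change cut-off and 6 under total-count scaling. With no fold-change cut-off and under total-count scaling, 11.1% and 13.4% of all genes were called. Upstream regulators gave 0 calls under median centring, rescaling without crystallin genes or voom. Total-count scaling moved the median log2 fold-change of expressed genes to 0.23 and the share of calls that were higher to 89.1% (64.5% as reported), with 1867 calls. There the p53 axis gave 11 calls and the other BCL2 family genes 1 (Bnip3), and Bid (0.12), Bnip3l (0.14) and Trp53 (0.047) turned positive, though below the shift of 0.23. The share of higher calls was 72.7% without the variance trend.

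With the replicate number as a block 3 members were called, Bbc3 in addition (adjusted p = 0.0493), and the other BCL2 family genes gave 1 call (Bnip3). Dffa and Chac1 were also called and Ppp1r15a was not (0.0539), and the block changed no other call in the lists but that of 1 mesenchyme marker. With 1 library left out, calls ranged from 0 to 2 for members, 0 to 1 for other family genes, 0 to 4 for apoptosis machinery, 0 to 8 for the p53 axis, 0 to 5 for stress genes and 0 to 1 for regulators. Over all genes the share called ranged from 0.00718% to 13.8% in these fits. Log2 fold-changes then ranged from -0.15 to 0.17 for Bcl2l11, from -0.18 to 0.19 for Bcl2l12 and from -0.058 to 0.13 for Apaf1. The causes were not tested. Pmaip1 had the fewest reads of the members, with 55 to 301 per library. Its SD was 0.19 log2 CPM in control and 1.18 log2 CPM in Celf1cKO libraries, and the part of depth in this was not tested. Bax minus Bcl2 differed between the groups by 1.03 to 1.12 under other scalings and pseudocounts and by 0.92 to 1.33 with 1 library left out. The lowest value under the other settings, 1.03, came with log2(CPM + 1). Settings that only rescale whole libraries nearly cancel out of this difference, so its narrow range under them was fixed in advance.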
